A study of Drosophila melanogaster with 6 samples.

Results

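The proteasome subunit genes of Drosophila melanogaster were taken as every gene of the count table whose FlyBase symbol begins with Prosalpha, Prosbeta, Rpn or Rpt followed by a number, which gave 48 of 17558 genes. They comprise 32 canonical subunit genes, with 7 alpha and 7 beta subunits of the core particle, 6 Rpt ATPases and 12 Rpn non-ATPase subunits, and 16 paralogs with an R or T after the subunit number (as in Rpn13R or Prosalpha4T1), a group known as testis-type. The genes were followed through 2 groups of 3 samples each from male flies aged to day 10. Post (post-isolation) samples held nuclear RNA from GFP-tagged nuclei captured from head homogenates with an antibody to GFP, and pre (pre-isolation) samples held total RNA of the corresponding head homogenates. Both groups came from flies with the same transgenes, UAS-GFP-Msp300KASH at attP2 and rh1-GAL4, on the third chromosome with ry[506], in a w background, so that Rh1-Gal4 placed KASH-GFP on the nuclear membrane of outer photoreceptors in post and pre flies alike. Each sample pooled many flies, the driver is also active in antennal sensory neurons according to the study, and post samples are labelled as adult retina although the nuclei were purified from whole heads.

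The proteasome is the protease that degrades ubiquitin-tagged proteins in the cytoplasm and the nucleus. Rings of alpha subunits form the gates of the barrel-shaped core particle, and rings of beta subunits inside it hold the cutting sites. The regulatory particle caps the barrel: its Rpt ATPases unfold substrates and thread them into the core, and its Rpn subunits receive ubiquitin chains, remove them and hold the particle together. Several subunits have R or T paralogs in flies that are expressed mainly in the male germ line.

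The samples held 11693481 to 14522962 gene counts in post and 9999540 to 11232033 in pre. All 11 photoreceptor marker genes were higher in post by an edgeR test against no change, and 5 of 6 glial markers were lower. Other lists were mixed: of 4 head fat body markers tested 2 were lower and 1 higher, and of 4 muscle markers 2 were lower and 0 higher. Of all genes tested, 26.1% were lower and 24.4% higher. Mitochondrial-encoded genes took 0.237% to 0.416% of gene counts in post, against 2.00% to 2.25% in pre. Post therefore differed from pre in cell type and in cell compartment, which this design cannot tell apart, and in such bulk samples fewer cells of a type cannot be told apart from less RNA per cell. The labels describe the numbered samples as paired biological replicates, and p-values cover the spread between these samples.

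Most canonical proteasome genes were lower in nuclei of the post samples than in head homogenate. Of 31 canonical genes that passed the filter on low counts, 24 were lower in post by the edgeR F test against no change at an FDR of 0.05, a call made for 26.1% of all 10378 genes tested, and 0 were higher, against 24.4% of all genes. The fitted log2 fold change was below 0 for 29 of the 31 genes, against 52.7% of all genes tested. Their median log2 fold change was -0.74, while that of all genes was -0.07. For 24 canonical genes every post value lay below every pre value, which held for 30.1% of all genes. Most of these differences were under 2-fold, with a fitted log2 fold change below -1 for 7 of the 31 genes. The test against a fold change of 2, glmTreat, called 1 canonical gene lower in post (Rpn6) and 0 higher, against 4.89% and 7.29% of all genes. Scaling by library size alone lowered the median of all genes to -0.51 and that of the canonical genes to -1.18, and all 31 were then lower in post by the F test, as were 41.7% of all genes under that scaling.

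**Figure D1:**
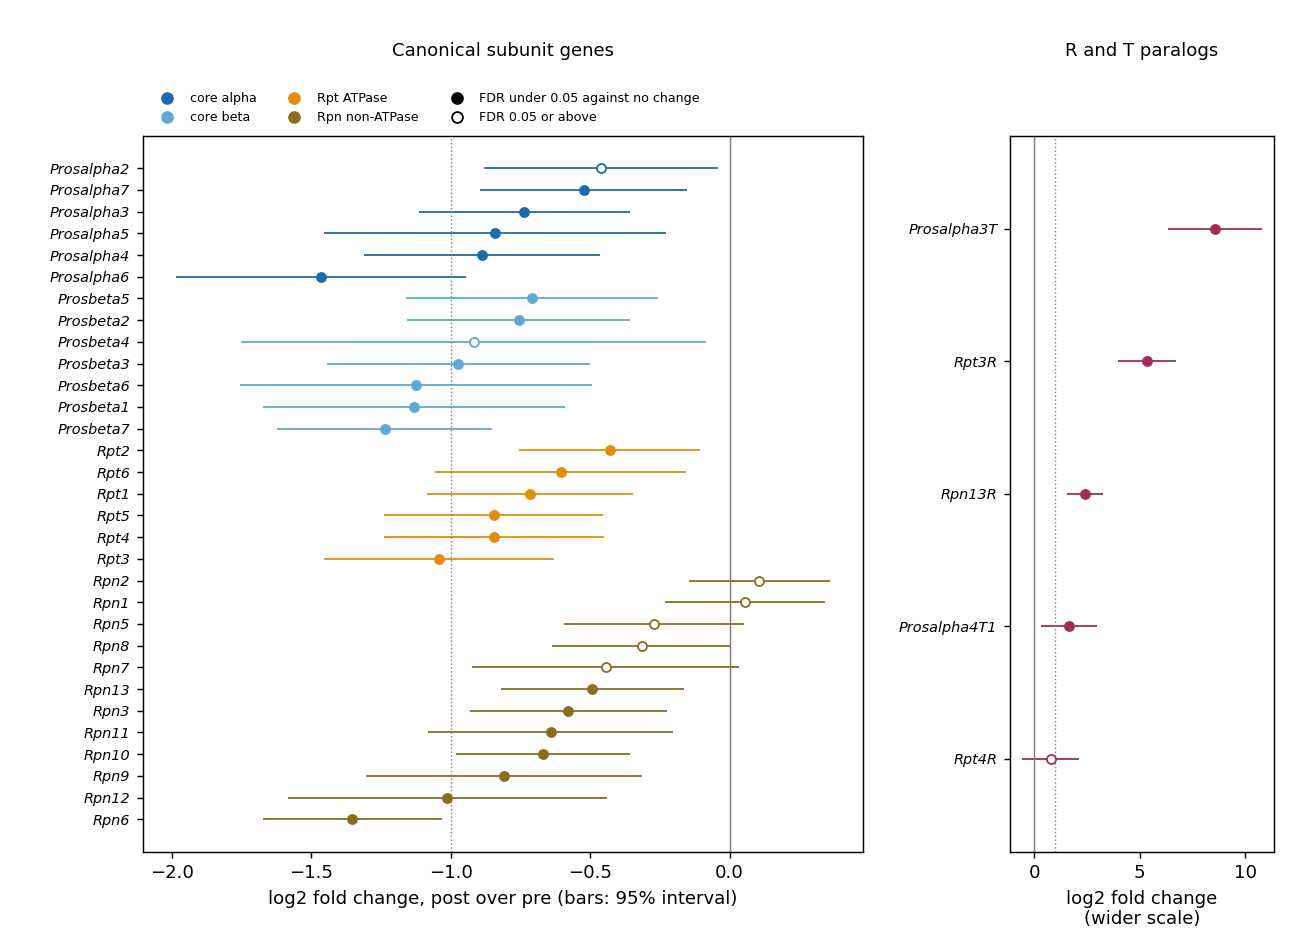
Log2 fold change, post over pre, of the 36 proteasome genes tested, with 95% intervals from the edgeR fit (3 samples per group). The left panel orders the canonical genes by class and the right panel, on a wider scale, shows the 5 paralogs that passed the filter; filled points passed the F test against no change and dotted lines mark a 2-fold difference. Points of the canonical genes lie between -1.47 (Prosalpha6) and 0.11 (Rpn2, which was -0.34 when scaled by library size alone), and those of the paralogs between 0.78 and 8.56.

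The alpha subunits form the outer rings of the core, whose N-terminal tails close the entrance to the barrel. Of 6 alpha genes tested, 5 were lower in post by the F test, against 26.1% of all genes. The median of the class on the log2 scale was -0.79. Prosalpha6 had the lowest log2 fold change of any canonical gene. Its levels were 9.80, 6.61 and 11.8 CPM in post samples, against 31.2, 21.7 and 25.0 CPM in pre samples. Every post value lay below every pre value, and the log2 fold change was -1.47 (SE 0.24). The F test passed (edgeR, adjusted p = 0.000153), whereas the test against 2-fold did not (adjusted p = 0.0797) and passed only under 3 of 14 alternatives, including the fit without post replicate 3 (adjusted p = 0.0284).

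At the other end of this class, Prosalpha2 had 16.7, 15.9 and 23.0 CPM in post samples, against 26.9, 23.6 and 26.0 CPM in pre samples. The groups did not overlap, although post replicate 3 came close to the lowest pre sample. The log2 fold change of -0.46 (95% interval -0.88 to -0.04) did not pass after adjustment (edgeR F test, adjusted p = 0.0629), and it did without post replicate 3 (-0.60, adjusted p = 0.0145; over all alternatives 0.00408 to 0.195). The 4 alpha genes in between, Prosalpha3, Prosalpha4, Prosalpha5 and Prosalpha7, had log2 fold changes of -0.89 to -0.52 and each passed the F test. The call was lost in 4 of the 6 fits that left out a sample for Prosalpha5 (adjusted p of 0.0653 to 0.117) and in 3 for Prosalpha7 (0.0608 to 0.0724). For Prosalpha5 the groups overlapped, because post replicate 3 at 15.1 CPM exceeded pre replicate 3 at 13.9 CPM.

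The beta subunits form the inner rings, in which Prosbeta1, Prosbeta2 and Prosbeta5 carry the caspase-like, trypsin-like and chymotrypsin-like activities. Of 7 beta genes tested, 6 were lower in post by the F test, against 26.1% of all genes. The median of the class, -0.97 on the log2 scale, was the lowest of the 4 canonical classes. Prosbeta7, a structural beta subunit, was the lowest of the class. Its levels were 15.9, 16.7 and 15.1 CPM in post samples, against 32.0, 41.9 and 38.6 CPM in pre samples. The post samples were close to each other and far below all pre samples, with a log2 fold change of -1.24 (SE 0.18; edgeR F test, adjusted p = 4.5e-05). The fitted difference was 2.36-fold, but glmTreat did not call it past 2-fold (adjusted p = 0.192).

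Prosbeta5 stood at the upper end of the beta genes, with 17.8, 17.3 and 27.3 CPM in post samples, against 27.1, 37.4 and 37.6 CPM in pre samples. Post replicate 3 overlapped the lowest pre sample, and the log2 fold change was -0.71 (SE 0.21; edgeR F test, adjusted p = 0.0117). This call was lost in 4 of the 6 fits that left out a sample, with adjusted p of 0.0542 to 0.0554. The other catalytic genes, Prosbeta1 and Prosbeta2, were lower by -1.13 (SE 0.25) and -0.76 (SE 0.19) on the log2 scale and both passed the F test. Thus all 3 catalytic genes were called lower.

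Prosbeta4 was the beta gene that did not pass. It had 2.49, 3.49 and 8.67 CPM in post samples, against 8.89, 10.7 and 7.85 CPM in pre samples. Post replicate 3 lay inside the pre range while the other post samples were well below it, and the log2 fold change was -0.92 with a wide 95% interval of -1.75 to -0.08 (edgeR F test, adjusted p = 0.0635). Without post replicate 3 it was -1.58 and passed (adjusted p = 0.00196).

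The Rpt genes encode the ring of ATPases at the base of the regulatory particle. All 6 were lower in post by the F test, against 26.1% of all genes. All 6 had post values below every pre value, against 30.1% of all genes. The median log2 fold change was -0.78. Rpt3 was the lowest. Its levels were 22.9, 17.6 and 16.1 CPM in post samples, against 32.4, 44.3 and 40.4 CPM in pre samples. The highest post sample was below the lowest pre sample, and the log2 fold change was -1.04 (SE 0.19; edgeR F test, adjusted p = 0.000376). Rpt2, the subunit known for opening the gate of the core in yeast, was the highest of the class. It had 29.2, 29.2 and 33.5 CPM in post samples, against 41.1, 43.5 and 39.3 CPM in pre samples. The groups did not overlap, and the log2 fold change was -0.43 (SE 0.15; edgeR F test, adjusted p = 0.0279). That call was lost under 7 of 14 alternatives, at adjusted p of 0.0503 to 0.102, and the call of Rpt6 (-0.61) under 5.

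Within the span of another gene on the same strand lay 1 Rpt gene, Rpt1. Its host CG17985 shared no exon bases with it and was higher in post by 2.81 on the log2 scale (edgeR, 2-fold adjusted p = 5.98e-06), while Rpt1 was lower by -0.71 (SE 0.17). Member and host thus differed in opposite directions. Reads from introns of CG17985 could be counted to Rpt1, and their part in its value was not tested.

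The Rpn genes showed the widest range. Of 12 tested, 7 were lower in post by the F test, against 26.1% of all genes, and 5 did not pass (Rpn1, Rpn2, Rpn5, Rpn7 and Rpn8). Their median was -0.54 on the log2 scale. The 8 Rpn subunits of the lid, the part that carries the deubiquitinase Rpn11, had a median of -0.61 and 5 calls. The remaining 4, which are the scaffolds Rpn1 and Rpn2 and the ubiquitin receptors Rpn10 and Rpn13, had a median of -0.22 and 2 calls. Both calls were of ubiquitin receptors, Rpn10 at -0.67 (SE 0.15) and Rpn13 at -0.49 (SE 0.15). The call of Rpn13 was lost without post replicate 1 and without pre replicate 2 (adjusted p of 0.0710 to 0.0723), and that of Rpn11 (-0.64) in 3 of the 6 fits that left out a sample (0.0611 to 0.0854).

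Rpn6, a lid subunit that clamps the regulatory particle onto the core, was the canonical gene called past 2-fold. It lies at 2R:14750166-14752910 on the BDGP6 assembly. Its levels were 22.0, 22.6 and 21.1 CPM in post samples, against 59.1, 54.6 and 54.0 CPM in pre samples. Samples within each group were nearly level and the groups were far apart. The log2 fold change was -1.35 (SE 0.15), so that the fitted post level was 39.2% of the pre level. The adjusted p was 3.1e-06 by the edgeR F test and 0.0361 by glmTreat. With the replicate number as a block the adjusted p of glmTreat was 0.0501, and the 2-fold call was lost under 10 of 14 alternatives (adjusted p over all alternatives 0.000442 to 0.632), including each fit that left out a sample, while the log2 fold change stayed between -1.80 and -1.28.

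Rpn1 and Rpn2, the large scaffold subunits, had the values nearest to 0 among the canonical genes. Rpn2 had 120, 109 and 121 CPM in post samples, against 106, 115 and 104 CPM in pre samples. The groups overlapped, and the log2 fold change was 0.11 with a 95% interval of -0.15 to 0.36. For Rpn1 the value was 0.06 with an interval of -0.23 to 0.34, and the means were 75.5 ± 9.80 CPM in post and 72.7 ± 1.62 CPM in pre (SD, n = 3 each). Scaled by library size alone, both changed sign, at -0.34 for Rpn2 and -0.40 for Rpn1. These were also the canonical genes with the longest exon length, 3412 bases for Rpn2 and 3041 bases for Rpn1, the others having 815 to 1945 bases.

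Across the 31 canonical genes, Spearman's rho between exon length and log2 fold change was 0.44, and 0.31 without Rpn1 and Rpn2, while across 9358 protein-coding genes tested it was 0.23. For the same 31 genes rho was higher with gene length (0.53, against 0.16 across protein-coding genes) and with mean log2 CPM (0.61). That mean includes the post values, which also enter the fold change, so these measures are not independent. The points share libraries and genes are not independent replicates, so these are descriptions. Canonical genes with 1000 to 1500 exon bases had a median log2 fold change of -0.73 (10 genes), and those with 1500 to 2000 bases had -0.65 (10 genes). All protein-coding genes of the same length bins had medians of -0.28 and -0.14. From 800 to 1000 bases the median was -0.92 (9 genes), against -0.32 for protein-coding genes, and from 2000 to 4000 bases, where the 2 genes are Rpn1 and Rpn2, it was 0.08, against -0.03. The canonical median was thus below that of protein-coding genes in 3 of the 4 bins and above it in the longest. The parts of length and of level in these values were not tested.

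Levels can be compared between subunits only per length, here as CPM per kilobase of exon. In post, the highest of the canonical genes was Rpn2 with 34.2 ± 1.89 CPM per kb (SD, n = 3). In pre, the highest was Prosalpha3 with 50.2 ± 9.71 CPM per kb. Prosalpha3, whose N-terminal tail is the main latch of the gate in yeast, had 32.6, 25.7 and 31.9 CPM per kb in post samples, against 51.1, 40.0 and 59.4 CPM per kb in pre samples. The groups did not overlap, and its log2 fold change was -0.74 (SE 0.18; edgeR F test, adjusted p = 0.00294). In post, the ranges of Rpn2 and Prosalpha3 overlapped.

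Prosbeta4 was the lowest of the canonical genes tested in both groups, at 5.99 ± 4.07 CPM per kb in post and 11.2 ± 1.77 CPM per kb in pre. The order of the 31 genes was partly shared, with a Spearman's rho of 0.73 between mean levels per kb in post and in pre. The coefficient of variation of the levels across the 31 genes was 42.2% to 46.7% in post samples and 29.5% to 33.2% in pre samples. These ranges did not overlap. The ratio of the highest to the lowest level did, at 11.5, 7.80 and 4.65 in post samples, against 4.69, 3.22 and 6.16 in pre samples, with post replicate 3 inside the pre range. No test was made because genes are not replicates.

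**Figure D2:**
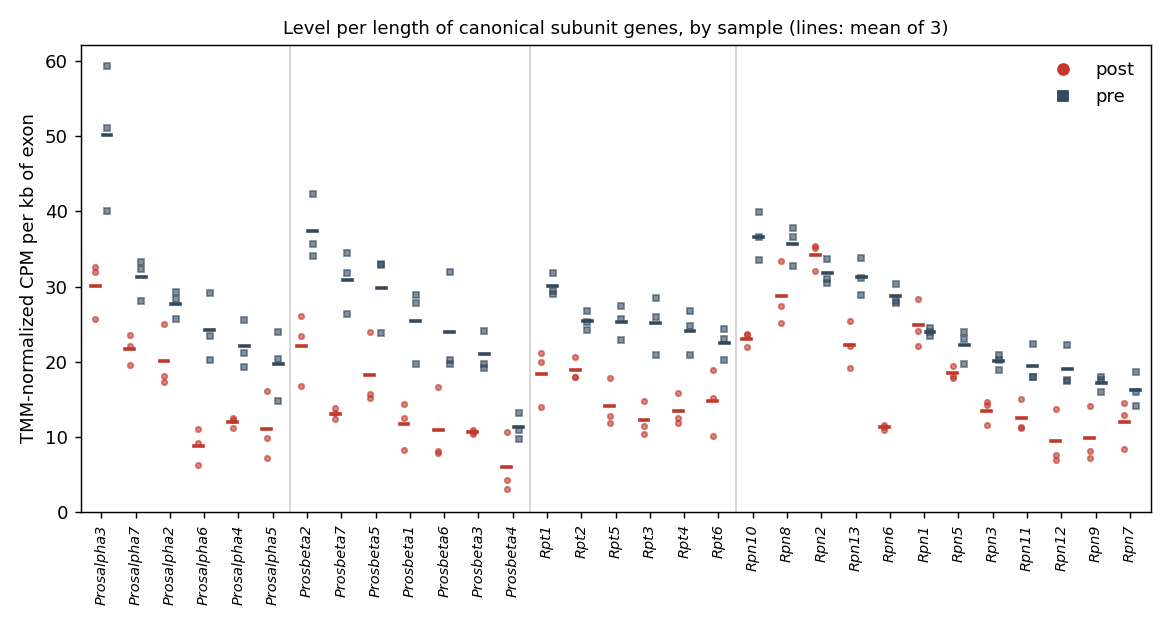
Levels of the 31 canonical proteasome genes tested, as TMM-normalized CPM per kilobase of exon, in 3 post samples (red circles, left of each pair) and 3 pre samples (dark squares), with lines at group means. Genes are grouped as alpha, beta, Rpt and Rpn and ordered by their mean in pre; post lies below pre for most genes, while for Rpn2 post had a mean of 34.2 and pre 31.7 CPM per kb, an order that turned round when scaled by library size alone.

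Summed over all 48 genes, the proteasome took 0.0658%, 0.0670% and 0.0790% of gene counts in post samples, against 0.134%, 0.136% and 0.138% in pre samples. The share in post was 0.519 of that in pre. The difference was smaller on the TMM scale, where the 48 genes summed to 821, 802 and 843 CPM in post samples, against 1151, 1171 and 1175 CPM in pre samples. The core genes took 0.0170% ± 0.00325 in post and 0.0417% ± 0.00173 in pre (SD, n = 3 each), and the regulatory genes 0.0503% ± 0.00512 in post and 0.0936% ± 0.00196 in pre. The core share was thus 0.407 and the regulatory share 0.537 of its level in pre, without a test between them. Rpn1 and Rpn2, whose log2 fold changes were near 0, held the most counts of the regulatory genes in both groups. The ratio of the core to the regulatory median per kb overlapped between groups, at 0.896, 0.926 and 0.737 in post samples, against 1.15, 0.759 and 1.15 in pre samples. Without mitochondrial-encoded genes in the total, the share of all 48 genes was 0.139% in pre and 0.0708% in post.

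The post samples were not alike. The median log2 difference of the 31 canonical genes from the pre mean was -0.74 in post replicate 1, -0.92 in post replicate 2 and -0.51 in post replicate 3. Post replicate 3 was thus the nearest to pre, and it held the highest of the 3 post values for 15 canonical genes. It also had the lowest summed level of the 11 photoreceptor markers in post (179525, 157175 and 127869 CPM in post samples, against 55095, 55383 and 53349 CPM in pre samples) and the highest sum of the 6 glial markers (1029, 969 and 1325 CPM in post samples, against 2235, 2111 and 2093 CPM in pre samples). The part of these cell types in the proteasome values was not tested.

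The R and T paralogs that were called were all higher in post. Of the 16 paralogs, 6 had 0 counts in all samples (Prosalpha1R, Prosbeta2R1, Prosbeta4R1, Prosbeta4R2, Prosbeta5R1 and Prosbeta5R2), which allows up to 0.276 CPM in any sample for counting error alone. A further 5 had few counts and did not pass the filter, and 5 were tested. Of the tested paralogs, 3 were higher in post past 2-fold by glmTreat, a call made for 7.29% of all genes: Prosalpha3T, Rpt3R and Rpn13R. For the same 3 every post value lay above every pre value, which held for 28.0% of all genes. Prosalpha3T and Rpt3R passed the filter of CPM above 1 in at least 3 samples through the post samples alone, so a tested low-level gene of this kind had to be higher in post and these counts give no support to a pattern over the paralogs. Summed over all 16, the paralogs had 41.3, 53.5 and 23.5 CPM in post samples, against 5.59, 5.55 and 3.67 CPM in pre samples.

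**Figure D3:**
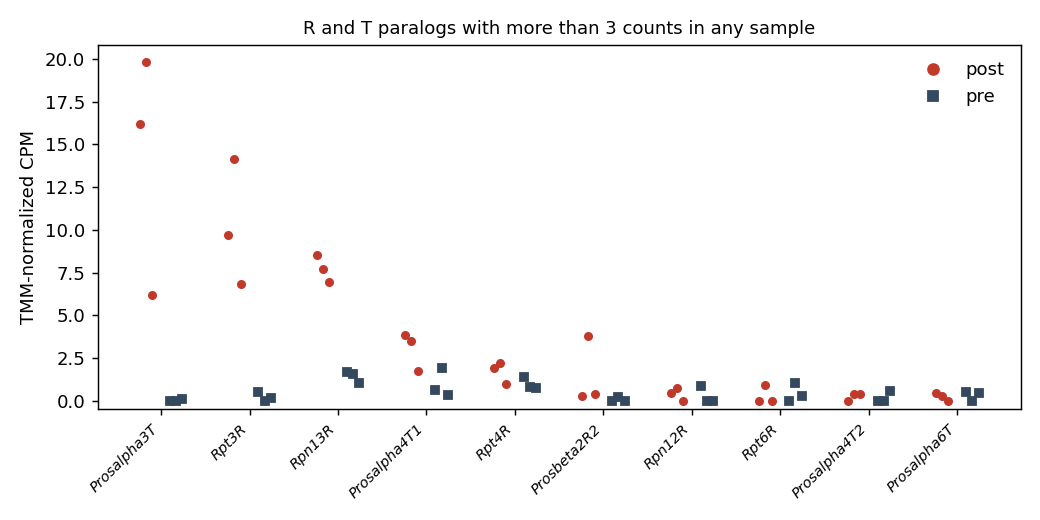
Levels of the 10 R and T paralogs with more than 3 counts in any sample, as TMM-normalized CPM in post samples (red circles, left) and pre samples (dark squares). Prosalpha3T reached 6.21 to 19.8 CPM, Rpt3R 6.84 to 14.1 CPM and Rpn13R 6.94 to 8.51 CPM in post, above their pre samples, whereas for most other paralogs the samples of both groups overlap.

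Prosalpha3T, the testis-type counterpart of Prosalpha3, is an intronless gene at 3R:31122527-31123415 with 889 exon bases. It had 188, 216 and 68 counts in post samples, against 0, 0 and 1 counts in pre samples. Post replicate 3 was the lowest of its group, and the groups were far apart. The ratio of summed counts, scaled for library size with TMM factors, was 527 with a 95% exact interval of 94.1 to 20853 for counting error only. The fitted log2 fold change was 8.56 (SE 1.04, edgeR glmTreat, adjusted p = 0.000115). It was 10.38 without pre replicate 3, the pre sample with the count. The pre samples then left had 0 counts, so the size of that value has no finite ratio of counts behind it. Because Prosalpha3T passed the filter through the post samples alone, the p-value of glmTreat gives no independent support to the direction. Prosalpha3T made up 34.5% of the summed level per kb of Prosalpha3 and Prosalpha3T in post and 0.0637% in pre. By sample, this part was 35.8%, 46.5% and 18.0% in post, against 0%, 0% and 0.161% in pre.

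The genes around Prosalpha3T were also higher in post. This window was examined after the values of Prosalpha3T had been seen. Of 7 genes within 30 kb, all tested, 5 were higher past 2-fold and 0 lower, against 7.29% and 4.89% of all genes. Of these 5, CG15554 and lncRNA:CR43458 passed the filter through the post samples alone and could only come out higher, Mayo passed it in 1 pre sample, and Ktch and CG15553 passed it in all 6 samples. They lay on both strands: Ktch upstream on the same strand at 3.07 (SE 0.31), Mayo and CG15553 downstream on the same strand at 6.05 and 2.60, and CG15554 and lncRNA:CR43458 on the opposite strand at 5.50 and 6.48. Mayo had 704, 606 and 200 counts in post samples, against 1, 18 and 6 counts in pre samples. In this gene, as in Prosalpha3T, post replicate 3 was the lowest post sample. The genes at the edges of the window, Gycbeta100B and CG11317, had log2 fold changes of 0.85 and 0.48 and did not pass the 2-fold test. No annotated gene overlapped Prosalpha3T itself. The labels give no position for the rh1-GAL4 transgene, which both groups carry, and whether it lies near these genes and has a part in their values was not tested.

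Rpt3R, the paralog of Rpt3, lies at 3R:9754735-9756510. It had 113, 154 and 75 counts in post samples, against 7, 0 and 2 counts in pre samples. The groups did not overlap, and post replicate 3 was again the lowest in post. The ratio of summed counts, scaled with TMM factors, was 42.4 (95% exact interval 22.1 to 93.6, counting error only). The log2 fold change was 5.35 (SE 0.65, edgeR glmTreat, adjusted p = 4.6e-05). This gene too passed the filter through the post samples alone, so the p-value gives no independent support to the direction. The log2 fold change was 6.78 without pre replicate 1 and 4.77 without pre replicate 2. The surroundings of Rpt3R differed from those of Prosalpha3T in their values. Of 20 genes tested within 30 kb, 1 was higher past 2-fold and 2 were lower, against 7.29% and 4.89% of all genes. The higher gene was Tti1, the next gene downstream on the same strand, at 1.73. On the opposite strand Alg12 shares 20 exon bases with Rpt3R and had a log2 fold change of 1.19 that did not pass the 2-fold test (adjusted p = 0.241).

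Rpn13R, the paralog of the ubiquitin receptor Rpn13, lies at X:5131898-5132985 and passed the filter in all 6 samples. It had 99, 84 and 76 counts in post samples, against 22, 20 and 12 counts in pre samples. Every post count was well above every pre count, and the log2 fold change was 2.41 (SE 0.41; edgeR glmTreat, adjusted p = 0.00652). The intronless Rpn13R lies on the same strand within the span of rg, a gene of 169106 bases, and of CG15465, which is annotated over the same length and had 0 counts. The host rg had a log2 fold change of 1.04 (SE 0.20), which passed the F test (adjusted p = 0.000471) and not the 2-fold test (adjusted p = 0.706). Reads from introns of rg could be counted to Rpn13R, and their part in this value was not tested.

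The remaining tested paralogs gave weak or no differences. Prosalpha4T1 had 45, 38 and 19 counts in post samples, against 8, 24 and 4 counts in pre samples, and the groups overlapped. Its log2 fold change was 1.65 (95% interval 0.30 to 3.00), which passed the F test (edgeR, adjusted p = 0.0408) and lost it under 7 of 12 alternatives (adjusted p over all alternatives 0.0116 to 0.142). It lies within CG42322 on the opposite strand, which was higher by 1.05 (SE 0.11; F test, adjusted p = 2.4e-06). Rpt4R had 22, 24 and 11 counts in post samples, against 18, 10 and 9 counts in pre samples. These overlapped, with a log2 fold change of 0.78 (95% interval -0.57 to 2.12).

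Among the 5 paralogs with few counts, Prosbeta2R2 had 3, 41 and 4 counts in post samples, against 0, 3 and 0 in pre samples. Post replicate 2 alone held most of its counts. Rpt6R had 0, 10 and 0 counts in post samples, against 0, 13 and 3 in pre samples. Rpn12R had 5, 8 and 0 in post, against 11, 0 and 0 in pre. It lies on the same strand within Sytbeta, which had a log2 fold change of -1.24 (SE 0.23). Prosalpha4T2 had 0, 4 and 4 counts in post, against 0, 0 and 7 in pre, and Prosalpha6T had 5, 3 and 0 in post, against 7, 0 and 5 in pre. These 5 genes did not pass the filter, so differences between groups were not tested for them in the main fit.

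Most testis marker genes were near 0 in both groups. Of 24 in the count table, 18 did not pass the filter on low counts, and 9 of these had 0 counts in all samples, among them Mst87F, Mst98Ca, Mst98Cb, ocn, janB and aly. Mst77F was higher in post past 2-fold (2.51, SE 0.41; edgeR glmTreat, adjusted p = 0.00452). By the F test fzo was higher too (0.92) and bol, the most abundant of them, lower (-0.50). Thus 2 of 6 tested were called higher and 1 lower, against 24.4% and 26.1% of all genes. The summed level of the list was 336, 313 and 435 CPM in post samples, against 466, 485 and 489 CPM in pre samples, and without bol it was 37.1, 42.5 and 35.4 CPM in post samples, against 27.3, 25.2 and 21.4 CPM in pre samples.

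Prosalpha1 was the canonical gene that could not be tested. It had 0 counts in post and 3 counts in pre, all of them in pre replicate 1, and its paralog Prosalpha1R had 0 counts. The genes lie next to each other on 2R, 1734 bases apart on the same strand, with 969 and 952 exon bases and introns of the same total length. The counter left out reads that align to more than 1 place, which made up 86.0% to 88.7% of alignments in post and 91.1% to 91.7% in pre. How many reads of this pair were left out was not tested, so their levels are uncertain.

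Other genes of the ubiquitin-proteasome pathway followed the subunits in part. Of 34 genes listed, 29 were found and tested. By the F test 14 were lower and 3 higher in post, against 26.1% and 24.4% of all genes. The median log2 fold change of the 29 genes was -0.28. Sem1, the small lid subunit outside the symbol rule, was lower by -1.33 (SE 0.21), REG, an alternative activator of the core, by -1.26 (SE 0.19), and the core assembly factor Pomp by -0.73 (SE 0.19). The proteasome-bound deubiquitinase Usp14 was lower as well, at 10.1 ± 4.38 CPM in post and 20.1 ± 4.44 CPM in pre (SD, n = 3 each; edgeR F test, adjusted p = 0.0109). For the other one, Uch-L5, the log2 fold change was -0.02 (95% interval -0.61 to 0.57). PI31, a proteasome regulator, had 0.10 and the ubiquitin-activating enzyme Uba1 had -0.10, and neither passed the F test.

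Past 2-fold, 4 of the 29 genes tested in the pathway list were lower, against 4.89% of all genes. These were the ubiquitin genes Ubi-p5E (-1.83), RpL40 (-1.76) and RpS27A (-1.57), of which the last encode ubiquitin fused to a ribosomal protein, and maf-S (-1.49), a small Maf protein. RpL40 and RpS27A are also part of the list of cytosolic ribosomal protein genes given below. Maf-S pairs with Cnc, the fly counterpart of the factors that induce proteasome genes in mammals. The value of cnc itself was -0.12 (95% interval -0.35 to 0.12). The 3 genes higher in post were the ubiquitin ligase components Cul1 (0.94), Cul3 (0.58) and ago (0.53). Scaled by library size alone their values were 0.48, 0.14 and 0.08.

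Set beside other large complexes, the canonical proteasome genes (24 of 31 lower, median -0.74) lay between groups. The other lists were taken by symbol without removing paralogs. With its own paralogs kept, the proteasome had 24 of 36 lower and 4 higher, with a median of -0.69. All 74 cytosolic ribosomal protein genes tested were lower in post, 50 of them past 2-fold, with a median of -1.41. They include RpL40 and RpS27A of the pathway list. Translation initiation factors had 24 of 36 lower and 2 higher, with a median of -0.53. The vacuolar proton pump had 6 of 16 lower and 6 higher, with a median of -0.08. Mitochondrial-encoded genes, whose RNA is made outside the nucleus, had 16 of 18 lower and a median of -2.65. Of all genes tested, 26.1% were lower and 24.4% higher by the F test, and 4.89% were lower past 2-fold. The lists share the same samples and no test was made between them.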

How the data were processed

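Heads of male flies gave 3 post and 3 pre RNA-seq samples of single-end reads. The authors trimmed reads with Trimmomatic, mapped them with TopHat to BDGP6, and deposited HTSeq strand-specific counts per gene with no normalization. A smaller count table filtered by the authors served as an alternative, and the CPM values that the authors deposited with it were not used in any test. Alignments that the counter did not assign (93.4% to 94.4% in post, 95.3% to 95.6% in pre, most of them aligned to several places) stayed out of library sizes and tests. Symbols and positions came from Ensembl release annotation of BDGP6, which matched 17252 of 17558 genes.

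The 10378 genes with a CPM over 1 in 3 or more samples were scaled with TMM and tested in edgeR 4.0.16 under R 4.3.3 with glmQLFit, glmTreat (2-fold) and glmQLFTest, with Benjamini-Hochberg adjustment over all genes at an FDR of 0.05. CPM printed for a gene is TMM-normalized. SE came from the F statistic and 95% intervals from its t distribution. Tables and figures used Python 3.11.15 with matplotlib 3.10.9, scipy 1.17.1 and pandas 2.3.3. The procedure was tested on simulated counts.

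The labels call the replicates paired. Deviations from group means of same-numbered samples had correlations of 0.02, 0.05 and -0.001. The main fit has no block, since the study's methods name none. Alternatives were RLE factors, library size alone, no filter, a minimum of 10 counts per sample, DESeq2 1.42.0, the table filtered by the authors, a replicate block, leaving out each sample (with the genes tested kept), and, chosen after seeing the data, edgeR's legacy quasi-likelihood fit. Values per sample are given for members past 2-fold, for paralogs with more than 3 counts in any sample, for the highest and lowest log2 fold change of each class, and for the highest and lowest level per length, together with genes whose span holds a member. The members and lists were chosen with earlier results of these data known. Promoter motifs and protein sequences were not analysed here.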

Additional observations from a re-analysis of the deposited data

How the results depend on the processing

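Of members higher in post past 2-fold (3), all were called under every alternative except at least 10 counts in every sample (1, which leaves out Prosalpha3T and Rpt3R by construction) and the authors' filtered table (0, which holds none of them). Those fits also gave 1 and 0 members higher by the F test, in place of 4, and leaving out each sample gave 3 to 4. Members lower past 2-fold (1) numbered 0 with RLE factors, no filter, DESeq2 and the replicate block, 2 in the authors' filtered table, 5 with library size alone and 0 to 1 when leaving out each sample, where without post replicate 3 the call was of Prosalpha6. With the replicate block no call of a member other than that of Rpn6 changed. Members lower by the F test (24) numbered 18 to 24 when leaving out each sample, 22 with DESeq2, 24 with the block and 31 with library size alone. Rpn1 (0.06) had -0.40 with library size alone and -0.052 to 0.18 when leaving out each sample (below 0 without post replicate 1), and Rpn2 (0.11) had -0.34 with library size alone. The share of members in pre was 0.139% without mitochondrial-encoded genes, against 0.136%. The cause of these differences was not tested except where the genes tested show it.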
